A study of Homo sapiens with 6 samples.

Results

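The 200 genes described here were the protein-coding genes of chromosome 19 whose symbol is ZNF followed by a number and whose estimated count averaged 50 or more over the 6 libraries, out of 30270 genes in the count table. Chromosome 19 held 221 such genes at any count, and 21 of them fell below the limit. The members were thus selected on name, place and mean count, and ZNF808 in addition on its change between the groups, so the values of ZNF808 are given as a description without a test. The study asked how loss of the uridylyltransferases TUT4 and TUT7 (TENT3A and TENT3B), which add uridines to RNA 3′ ends, alters the transcriptome of HEK 293T cells, an immortalized human embryonic kidney line carrying the SV40 large T antigen. Total RNA was depleted of ribosomal RNA and sequenced from 3 WT libraries and 3 libraries labelled as a TENT3A/B knockout, here written ΔTUT4/7, with no treatment in either group. The WT cells came from a cell repository and the ΔTUT4/7 line was a gift from the laboratory that had made it earlier. Each group thus came from 1 line, and the deletion cannot be told apart from other differences between the lines. The 3 libraries of a group are biological replicates of that line.

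ZNF genes of chromosome 19 encode mostly KRAB zinc finger proteins, the largest family of human transcription factors. A tandem array of C2H2 zinc fingers binds DNA, often within a retroelement, and the KRAB domain recruits TRIM28, which brings in the histone methyltransferase SETDB1 and the heterochromatin proteins of the HP1 family. The genes lie in clusters that grew by tandem duplication, so neighbours are often close paralogs, and the 3′ ends of many carry heterochromatin themselves.

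The libraries held between 18757228 and 33148937 counts. TUT7 fell from 62.6 ± 2.17 to 26.3 ± 1.04 CPM (counts scaled to the TMM-adjusted library size, mean ± SD, n = 3) in the libraries labelled ΔTUT4/7, whereas TUT4 rose from 211 ± 5.08 to 906 ± 21.4 CPM. The TUT7 value goes with the label and the TUT4 value against it, and every direction below rests on the label. Of the kidney and HEK 293T markers, PAX2, LHX1, KRT8, KRT18, VIM and NEFL were detected in both groups, and PAX8 was not analysed here. Of the markers of other cell types, COL1A1 had 1553 counts in the 3 WT libraries and 533 in the 3 labelled ΔTUT4/7, while CD68, PECAM1 and ALB had between 4 and 17.2 counts per group.

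Among the members, 6 were close to silent in WT cells, and the stretch around the start of 4 of them is shown because these carry the steepest changes in the family. Each is 300 bases from RefSeq on build GRCh38.p14, from 250 bases before to 50 after the gene's start, read 5′ to 3′ on the strand of the gene, with every CG dinucleotide in capitals. ZNF808 lies at chr19:52527418-52527717 on the plus strand, ZNF347 at chr19:53159004-53159303 on the minus strand, ZNF682 at chr19:20039456-20039755 on the minus strand, and ZNF492 at chr19:22634074-22634373 on the plus strand.
ZNF808: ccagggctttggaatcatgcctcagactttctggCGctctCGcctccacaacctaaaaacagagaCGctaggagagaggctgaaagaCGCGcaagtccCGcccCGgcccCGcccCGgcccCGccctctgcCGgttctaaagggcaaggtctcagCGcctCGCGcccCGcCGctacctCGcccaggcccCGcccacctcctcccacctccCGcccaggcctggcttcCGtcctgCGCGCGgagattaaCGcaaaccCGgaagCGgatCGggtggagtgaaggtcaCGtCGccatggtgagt
ZNF347: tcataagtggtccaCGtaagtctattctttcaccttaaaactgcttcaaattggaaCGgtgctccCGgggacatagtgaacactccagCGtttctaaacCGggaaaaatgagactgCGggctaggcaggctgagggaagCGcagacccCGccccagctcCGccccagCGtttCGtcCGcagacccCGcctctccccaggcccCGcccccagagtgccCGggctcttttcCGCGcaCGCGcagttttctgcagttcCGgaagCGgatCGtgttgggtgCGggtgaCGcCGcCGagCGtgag
ZNF682: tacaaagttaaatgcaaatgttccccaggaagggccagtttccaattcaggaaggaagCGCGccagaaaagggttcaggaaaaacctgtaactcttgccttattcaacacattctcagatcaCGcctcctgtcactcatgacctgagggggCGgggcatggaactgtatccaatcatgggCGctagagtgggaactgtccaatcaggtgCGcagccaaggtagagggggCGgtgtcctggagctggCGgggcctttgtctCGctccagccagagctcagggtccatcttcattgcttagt
ZNF492: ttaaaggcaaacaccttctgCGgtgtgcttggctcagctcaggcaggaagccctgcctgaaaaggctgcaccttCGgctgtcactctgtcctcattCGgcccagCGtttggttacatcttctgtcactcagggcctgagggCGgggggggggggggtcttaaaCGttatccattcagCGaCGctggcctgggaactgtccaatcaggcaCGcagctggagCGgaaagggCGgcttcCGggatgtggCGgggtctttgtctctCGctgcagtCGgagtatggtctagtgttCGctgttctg

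These windows held 29 CG dinucleotides in ZNF808, 27 in ZNF347, 9 in ZNF682 and 16 in ZNF492. ZNF682 has a second RefSeq window, at chr19:20039206-20039505, with 16 CG. The first listed window of each gene was used. A RefSeq window was found for 181 of the 200 members. Their median was 21 CG, against 14 over 27305 promoters of the same length. Unlike the members, these promoters were not limited to protein-coding genes averaging at least 50 counts. Whether the CG and motif contrasts with all promoters would hold against such genes was not tested. The 34 matched members called 2-fold or more higher in ΔTUT4/7, with ZNF808 counted in without a test, had a median of 22 CG. The other 147 had a median of 20. All 6 near-silent members, which reached the count limit only through the ΔTUT4/7 libraries, are among the 34. GGGCGG, the GC box letters, stood on either strand in 116 of the 181 windows (64.1%) and in all 6 windows of the near-silent members, against 44.6% of all promoters. It contains a CG and so adds to the CG count. CCAAT was present in 51.9% of member windows and 35.7% of all promoters, while TATAAA was present in 2.21% and 11.95%. TGACGTCA was present in 3.87% of member windows and 1.98% of all promoters. All motifs were searched on both strands. A match describes the letters only.

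Transcripts of the chromosome 19 ZNF genes were more often higher in ΔTUT4/7 than lower. Leaving out ZNF808, 124 of 199 members were called higher and 20 lower by edgeR's quasi-likelihood test at an adjusted p under 0.05, where 39.2% of the 15574 genes averaging at least 50 counts were called higher and 31.7% lower. At a change of 2-fold or more, 35 of the 199 were called higher and 1 lower, against 5.59% and 8.25% of those genes. The median log2 fold change was 0.39 over the 199 members, 0.06 over genes averaging at least 50 counts and -0.02 over all 23952 tested genes. In 131 members every ΔTUT4/7 library stood above every WT library, in 23 every one stood below, and in 45 the groups overlapped. Over genes averaging at least 50 counts, 41% stood above and 33.2% below, 74.1% in all.

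The limit was reached by 7 members, ZNF808 among them, only through the ΔTUT4/7 libraries and by none only through WT, so these 7 had to differ. Among the 193 members with a mean of 50 or more counts in each group, 118 were called higher and 20 lower, with a median of 0.35. The shares over all genes passing that limit were 40.4% and 29.7%. At 2-fold or more, 30 of the 193 were higher and 1 lower, against 4.86% and 5.61%. Together the members took 0.471% ± 0.0143 of all counts in WT and 0.575% ± 0.00443 in ΔTUT4/7 (SD, n = 3).

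**Figure D1:**
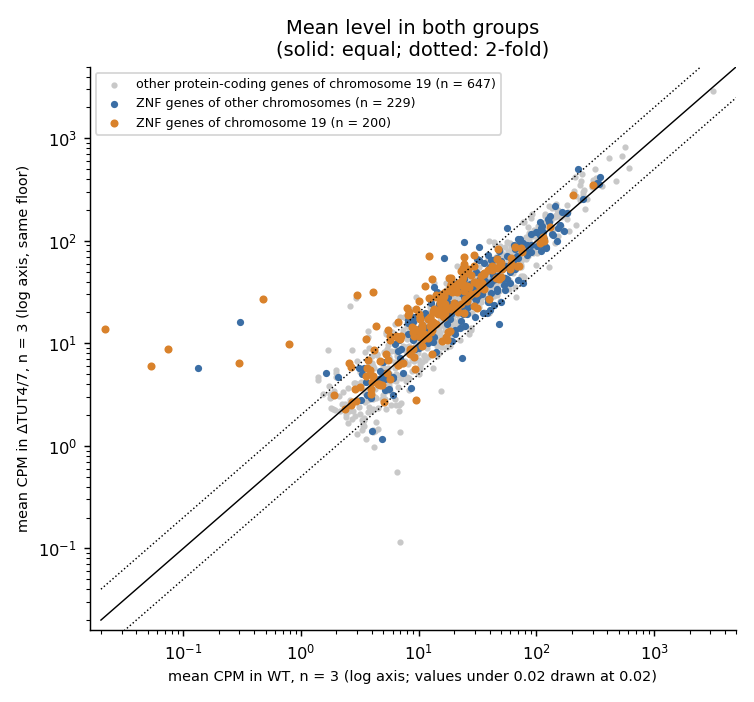
Mean CPM of 3 WT libraries (x axis, log scale) against mean CPM of 3 libraries labelled ΔTUT4/7 (y axis, log scale); each point is a gene, with the 200 chromosome 19 ZNF genes in orange, 229 ZNF genes of other chromosomes in blue and 647 other protein-coding genes of chromosome 19 in grey, a solid line at equal levels and dotted lines at 2-fold. The 6 near-silent members stand far above the upper dotted line at the left.

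The genes most like the members are those that share the chromosome and those that share the name. Among 647 other protein-coding genes of chromosome 19 averaging at least 50 counts, 261 were called higher and 174 lower, with a median of 0.09. Among 229 ZNF genes of other chromosomes under the same limit, 44.5% were higher and 29.3% lower, again with a median of 0.09. At 2-fold or more, these groups had 35 higher and 30 lower genes, and 13 higher and 5 lower genes. The differences between the 3 gene groups were not tested, since genes are not replicates.

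Quantification of these genes carries a limit. The authors' expectation-maximisation model divides reads among similar genes, and 168 of the 200 members had a count that was not whole in at least 1 library. Such values were common over all genes too, from 45.2% of values in ΔTUT4/7 replicate 3 to 49.95% in WT replicate 3. The share of all expressed genes with such a count in at least 1 library was not computed. Whether the members stand out in this was thus not tested. A same-strand gene overlapped 62 members and an opposite-strand gene 93, and the strand setting of the counting is not given in the sources used here. Among the 32 members with whole counts in all 6 libraries, 14 (43.8%) were called higher and 2 (6.25%) lower, with a median of 0.19. Of the 27 among them with 50 or more counts in each group, 9 (33.3%) were higher and 2 (7.41%) lower, with a median of 0.06, where 40.4% and 29.7% of all genes under that limit were called. Most of these 27 stood under 10 CPM in WT, and of all genes at 1 to 10 CPM 30.2% were called higher and 22.5% lower. Rises among the 27 were thus near the share over genes of that level, while falls were fewer. The higher share of rises over the whole family was not seen in the members counted as whole. The tolerance for whole counts was very strict, however. ZNF274, ZNF333 and ZNF175 were not counted as whole, although their summed counts print as whole numbers. These sums were 1815 and 3898, 1347 and 776, and 1897 and 1906 in WT and ΔTUT4/7. ZNF274 was called higher, ZNF333 lower and ZNF175 neither. The split thus does not cleanly part members with and without shared reads. The part of read sharing in the family's rises was not tested.

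The strongest differences were in genes nearly without reads in WT cells. ZNF808, a KRAB zinc finger gene required for pancreas development in humans, lies at 52527652 to 52564464 on the plus strand of hg38. It stood at 0, 0 and 0.0652 CPM in WT replicates 1, 2 and 3 and at 12.5, 13.1 and 16.0 CPM in the ΔTUT4/7 replicates. This amounts to 2 counts in WT and 970 in ΔTUT4/7, or 521 times as many after scaling for depth (exact 95% bounds 144 and 4310, counting error only). ZNF808 overlaps ZNF701 on the same strand, and its counts were not whole. ZNF701, at 52555457 to 52587174, went from 8.86, 8.15 and 6.65 CPM to 21.2, 21.9 and 23.4 CPM, a log2 fold change of 1.5 ± 0.11 (SE; adjusted p = 8.41e-11, edgeR quasi-likelihood). ZNF578, the neighbour of ZNF808 on the other side, reached neither the limit nor the count needed for testing.

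ZNF347 lies on the minus strand in the same cluster at 53124072 to 53159075 and encodes 17 C2H2 repeats behind a KRAB domain. It stood at 0.153, 0.0385 and 0.0326 CPM in WT and at 8.99, 8.92 and 8.38 CPM in ΔTUT4/7. All its counts were whole, with 5 in WT and 625 in ΔTUT4/7, and its log2 fold change was 6.95 ± 0.29. ZNF682, at 19997058 to 20039505 and far away on the short arm, also had few reads in WT. It stood at 0.0509, 0.0769 and 0.0326 CPM in WT and at 5.09, 5.41 and 7.51 CPM in ΔTUT4/7, which is 4 whole counts against 415. Its log2 fold change was 6.70 ± 0.35. The ratio of summed counts was 134 (57.3 to 415) for ZNF347 and 112 (43.2 to 411) for ZNF682, so their order was not resolved.

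ZNF492, at 22634324 to 22667671, held 12 C2H2 repeats and no KRAB-like core in its reference protein. Its levels were 0.611, 0.423 and 0.391 CPM in WT and 27.5, 27.4 and 26.2 CPM in ΔTUT4/7. The log2 fold change was 5.86 ± 0.15. ZNF329, at 58126248 to 58155110, stood at 0.662, 0.846 and 0.848 CPM in WT and at 9.67, 10.2 and 9.81 CPM in ΔTUT4/7, a change of 3.63 ± 0.17 with whole counts throughout. ZNF528, at 52397849 to 52418412, stood at 0.356, 0.269 and 0.261 CPM and then at 5.59, 7.06 and 6.44 CPM, a change of 4.43 ± 0.24, also with whole counts. These 6 genes entered only through the ΔTUT4/7 libraries, so their direction was fixed by the limit and no p is given. ZNF682 and ZNF528 had mean counts under 100 and were singled out after their values were seen.

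**Figure D2:**
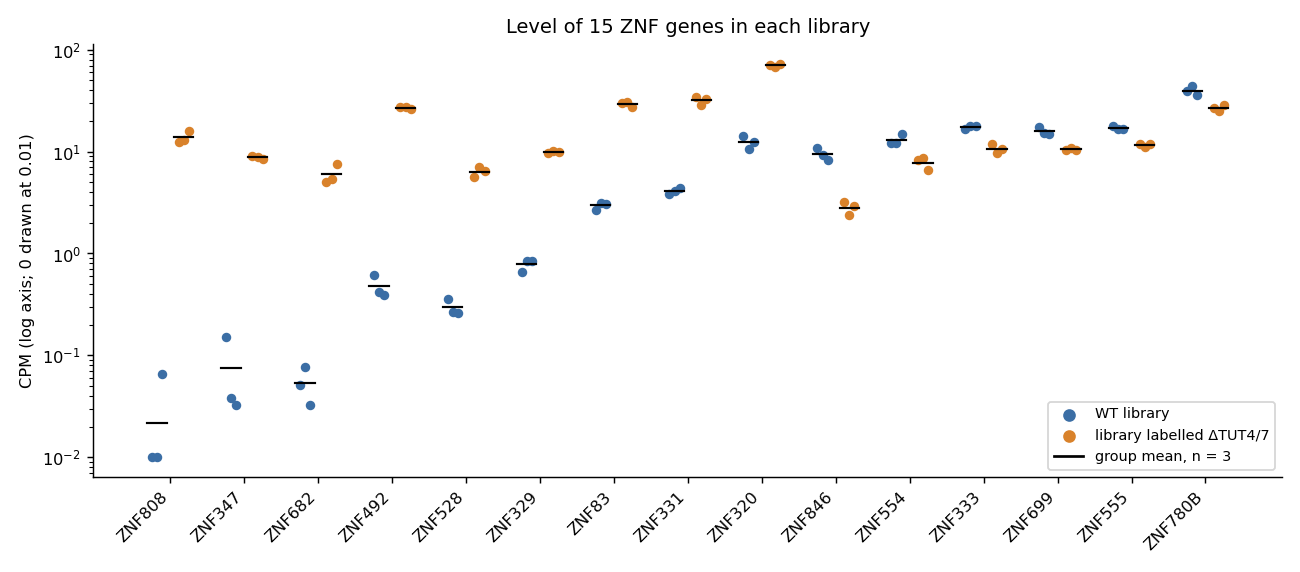
CPM (log axis, libraries at 0 drawn at the foot of the axis) of 15 members in each WT library (blue) and each library labelled ΔTUT4/7 (orange), with group means (n = 3) as black bars. The first 9 genes stand higher in every ΔTUT4/7 library and the last 6 stand lower, without overlap.

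Several genes with clear expression in WT also rose. ZNF83, a gene with 14 finger repeats and no KRAB-like core, went from 2.698, 3.15 and 3.07 CPM to 30.0, 30.4 and 27.6 CPM (3.29 ± 0.11, adjusted p = 2.79e-16). It overlaps AC022150.2 and AC022150.4 on the same strand, and its counts were not whole. The pseudogene ZNF137P overlaps it on the opposite strand, and reads of ZNF83 and ZNF137P cannot be told apart without strand. ZNF331, an imprinted gene with a KRAB domain, went from 3.82, 4.08 and 4.37 CPM to 34.6, 28.9 and 32.5 CPM (2.96 ± 0.10, adjusted p = 1.02e-15). No gene overlapped ZNF331 and all its counts were whole. ZNF320 rose from 12.3 ± 1.81 to 70.6 ± 2.45 CPM (2.53 ± 0.08). ZNF850, with 29 finger repeats, had the smallest p in the 36 Mb cluster and rose from 24.2 ± 1.46 to 69.8 ± 3.43 CPM (1.54 ± 0.06, adjusted p = 1.78e-14).

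Several members with a described function also differed. ZNF274, which guides SETDB1 to the 3′ ends of ZNF genes, rose from 24.0 ± 1.44 to 54.3 ± 4.02 CPM (1.19 ± 0.07, adjusted p = 4.58e-12). The repressor ZNF649 rose from 11.4 ± 0.443 to 36.3 ± 1.2 CPM (1.67 ± 0.08) and ZNF382 from 16.6 ± 0.506 to 31.3 ± 1.51 CPM (0.91 ± 0.08). ZNF420, known as APAK and described as a regulator of p53, rose from 13.98 ± 2.00 to 28.2 ± 0.838 CPM (1.03 ± 0.09). Smaller rises were found for ZNF536 (0.53 ± 0.10), a neuronal repressor, and for ZNF224 (0.46 ± 0.07), a KRAB repressor. ZNF296, which reached the limit only through ΔTUT4/7, stood 0.70 ± 0.21 higher. ZNF473, the ZFP100 subunit of the U7 snRNP that processes histone pre-mRNA, differed by 0.17 ± 0.07 (adjusted p = 0.0368), and this call was lost in 9 of the alternatives. ZNF91, a repressor of SVA retroelements with 31 finger repeats, was lower by a log2 fold change of -0.16 ± 0.06 (adjusted p = 0.0182), and 3 alternatives did not call it.

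Of the 20 members called lower, ZNF846 alone passed 2-fold. It lies at 9751993 to 9793180 on the short arm and went from 10.9, 9.23 and 8.32 CPM in WT to 3.18, 2.37 and 2.91 CPM in ΔTUT4/7 (-1.72 ± 0.15, adjusted p = 3.08e-09), with whole counts. The next falls by the rule for named genes were ZNF554 (-0.73 ± 0.12), ZNF333 (-0.70 ± 0.10), ZNF699 (-0.58 ± 0.10), ZNF555 (-0.56 ± 0.09) and ZNF780B (-0.55 ± 0.08). ZNF554 and ZNF555 are adjacent at the distal short arm. ZNF836 was the only member called lower in the 52 Mb cluster, from 5.06 to 2.66 CPM (-0.91), and its mean count was under 100.

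Per transcript length, ZNF146 was the most abundant member in both groups. This gene consists of 10 fingers without a KRAB domain and stood at 61.2 CPM per kilobase in WT and 83.5 in ΔTUT4/7, a rise of 0.45 ± 0.05 on the log2 scale. ZNF121 stood at 43.0 and 50.2 CPM per kilobase (0.23 ± 0.04) and ZNF460 at 30.0 and 26.0 (-0.20 ± 0.05, adjusted p = 0.00142). By WT level, and with 50 or more counts in each group, 29 of the 58 members at 1 to 10 CPM were called higher and 3 lower (median 0.35), against 30.2% and 22.5% of all genes at that level. Of the 119 members at 10 to 50 CPM, 83 were higher and 12 lower (0.41), against 42.2% and 30.8%. Of the 16 at 50 CPM or more, 6 were higher and 5 lower (0.04), against 45.7% and 33.5%.

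A KRAB-like core was found by sequence search in 168 reference proteins and was missing in 32. With 50 or more counts in each group, 62.2% of 164 with the core were called higher and 10.98% lower (median 0.39), and 55.2% of 29 without it were higher and 6.90% lower (median 0.26). The proteins held 1 to 31 C2H2 repeats with a median of 12. Medians were 0.30 for the 51 members with up to 9 repeats, 0.35 for the 86 with 10 to 14 and 0.46 for the 63 with 15 or more. In that order 60.8%, 59.3% and 68.3% were called higher, and 3.92%, 10.5% and 14.3% lower. These classes also hold the members that reached the limit only through ΔTUT4/7, ZNF808 among them. Transcript GC content had a median of 42.4%, against 47.8% over protein-coding genes averaging at least 50 counts, and the same fit with a GC and length offset called 135 members higher, ZNF808 included, and 18 lower.

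The members also differed by position along the chromosome, which is described here without a test. Starts more than 1 Mb apart were used to split the chromosome into 16 clusters, of which 10 had 3 or more members and held 193 of them. Calls per arm and cluster are given for members with 50 or more counts in each group. Over all genes under that limit, 40.4% were called higher and 29.7% lower. On the short arm 18 of 54 members (33.3%) were called higher and 14 (25.9%) lower (median 0.03), shares near those of all genes. On the long arm 100 of 139 (71.9%) were higher and 6 (4.32%) lower (median 0.50). The cluster at 51.57 to 53.58 Mb, which holds ZNF808, ZNF347, ZNF528, ZNF83, ZNF320 and ZNF331, had 25 of 27 such members called higher, 12 of them at 2-fold or more, and a median of 0.96. With ZNF808, ZNF347 and ZNF528 the median over its 30 members was 1.01. Besides ZNF836, only ZNF175 (0.11, adjusted p = 0.214) was not called higher in this cluster.

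The clusters at 36.18 to 37.82 Mb and 43.53 to 45.08 Mb had 19 of 26 and 16 of 21 members called higher and none lower, with medians of 0.57 and 0.41. ZNF227 had the smallest p in the latter (0.72 ± 0.07). The cluster nearest to the long-arm end, at 55.48 to 58.48 Mb, held 51 such members, of which 35 were higher and 2 lower with a median of 0.43. In the pericentromeric cluster at 19.67 to 24.13 Mb, which holds ZNF682, ZNF492 and ZNF91, 11 of 18 were higher and 3 lower (median 0.27).

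Other clusters stood near or below 0. At 11.48 to 12.64 Mb, 2 of 18 members were called higher and 5 lower (median -0.05), and ZNF433 had the smallest p there (1.15 ± 0.16). The share called lower there was near the 29.7% of all genes under the same limit. At 7.07 to 9.79 Mb, 5 of 13 were higher and 3 lower (0.15), with ZNF426 at 1.03 ± 0.07 and ZNF846 at -1.72 in the same cluster. At 34.68 to 34.96 Mb, 2 of 5 were higher (0.06), among them ZNF30 at 0.52 ± 0.09. At 2.82 to 2.94 Mb, 2 of 4 members were lower and none higher, and at 39.98 to 40.09 Mb all 3 members (ZNF546, ZNF780A and ZNF780B) were lower, both with a median of -0.34.

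**Figure D3:**
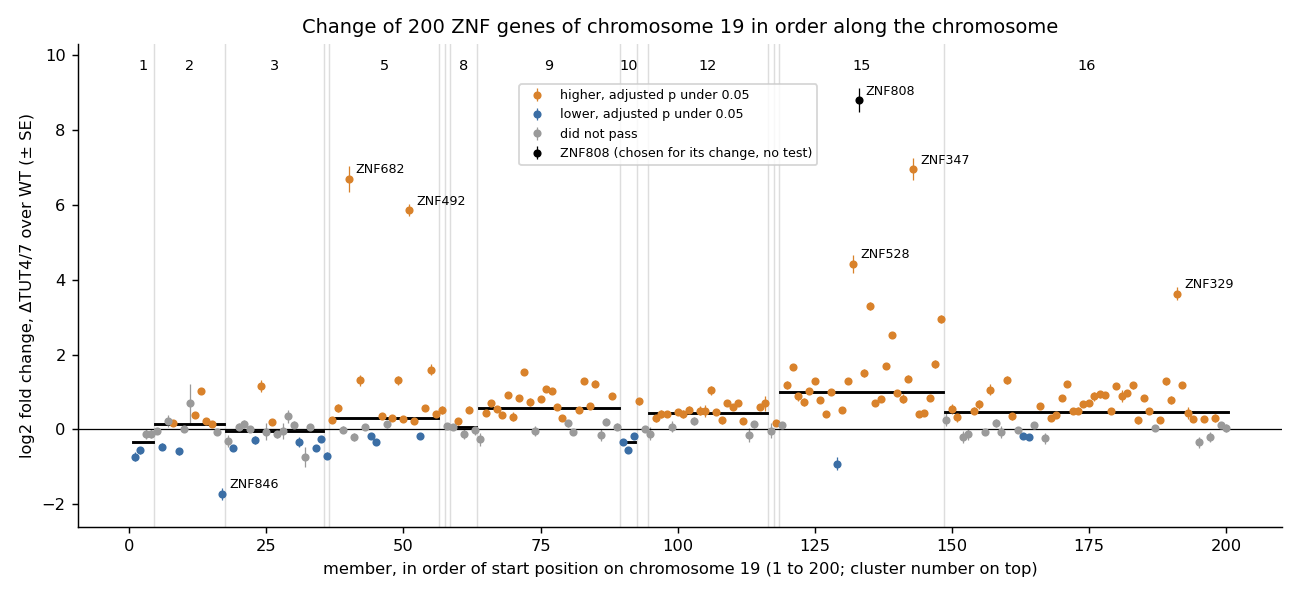
Log2 fold change of ΔTUT4/7 over WT with its SE for the 200 members in order of start position on chromosome 19; vertical lines part the 16 clusters and black bars mark the median of each cluster with 3 or more members. Orange and blue points passed an adjusted p of 0.05, grey points did not, and no test is given for ZNF808 (black). For the 7 members that reached the count limit only through ΔTUT4/7, ZNF808 among them, the direction was fixed by the limit, whatever the colour. Clusters 9, 12, 15 and 16 on the long arm stand mostly above 0.

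The cluster medians varied little between libraries of a group. Relative to the WT mean and to all genes averaging at least 50 counts, the median of the 52 Mb cluster was 0.04, 0.03 and -0.09 in the WT replicates and 0.92, 0.93 and 0.97 in the ΔTUT4/7 replicates. That of the 36 Mb cluster was 0.04, 0.00201 and -0.04 in WT and 0.50, 0.50 and 0.52 in ΔTUT4/7. For the 40 Mb cluster it was 0.03, 0.11 and -0.14 in WT and -0.42, -0.40 and -0.38 in ΔTUT4/7. Among the clusters with 3 or more members, the groups overlapped only at 7.07 to 9.79 Mb and 34.68 to 34.96 Mb. Separation was also common among single genes: in 74.1% of genes averaging at least 50 counts the groups did not overlap.

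**Figure D4:**
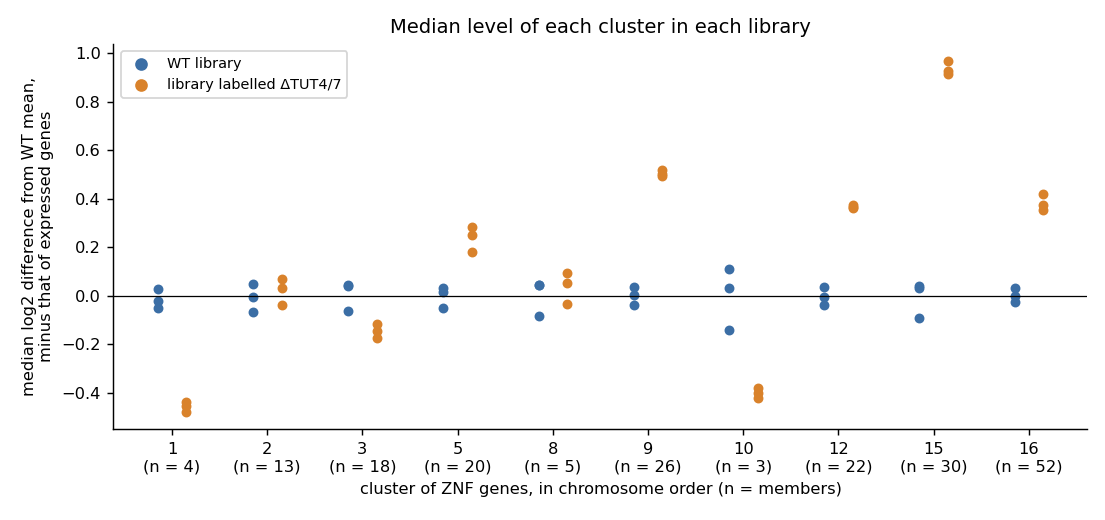
Median over the members of a cluster of the log2 difference from the WT mean, minus the same median over expressed genes (y axis), for each WT library (blue) and each library labelled ΔTUT4/7 (orange) in the 10 clusters with 3 or more members (x axis). Cluster 15 has the highest ΔTUT4/7 points at 0.92 to 0.97, and in clusters 1, 3 and 10 all 3 ΔTUT4/7 points lie below 0.

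Other genes around the clusters were compared with the members. Protein-coding genes without a ZNF name inside or within 1 Mb of the 52 Mb cluster had a median of 0.26, with 9 of 21 called higher and 5 lower, shares near the 39.2% and 31.7% over all genes, and those around the 55.48 to 58.48 Mb cluster had a median of 0.40, with 19 of 34 higher and 4 lower. These neighbours were chosen by name alone, so finger genes without a ZNF name are among them. ZSCAN18 and ZFP28 were among the 4 neighbours of the 55.48 to 58.48 Mb cluster called 2-fold or more higher. No neighbour there was called 2-fold or more lower. Around the 36 Mb cluster the median was 0.20 and around the 43.53 to 45.08 Mb cluster 0.08. Around the 2.82 to 2.94 Mb and 39.98 to 40.09 Mb clusters it was 0.11 and 0.14, above that of the ZNF members. When each member's log2 fold change was taken relative to the median of expressed non-ZNF genes of any biotype within 1 Mb, 16 members in place of 36 (ZNF808 in both) stood 2-fold or more higher and 2 stood 2-fold or more lower, 127 of 200 were above 0, and the median was 0.14. The 16 included ZNF808 (8.001), ZNF347 (6.39), ZNF528 (3.82), ZNF331 (2.67), ZNF83 (2.50), ZNF320 (1.73) and ZNF813 (1.46) of the 52 Mb cluster, but ZNF649 (0.92), ZNF468 (0.86) and ZNF701 (0.71) no longer reached 1. Neighbour medians ran from -0.15 to 0.84. Those of ZNF649, ZNF468 and ZNF701 were 0.75, 0.84 and 0.79 and rested on only 7, 6 and 7 genes. The protein-coding genes around the 52 Mb cluster had the lower median of 0.26 given above.

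**Figure D5:**
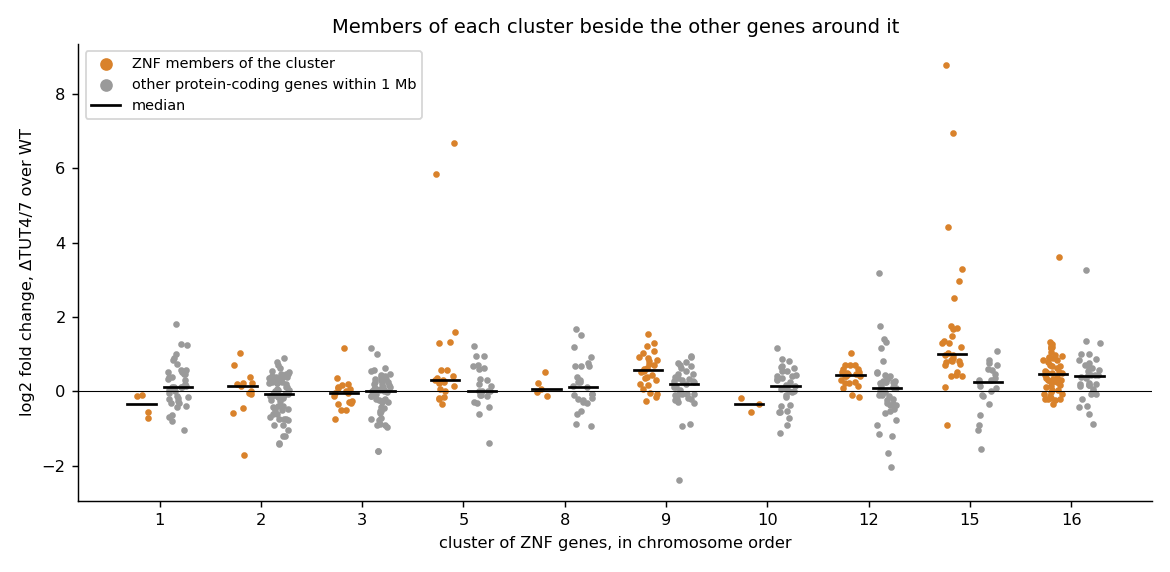
Log2 fold change of the ZNF members of each cluster (orange) beside that of the other expressed protein-coding genes inside or within 1 Mb of the cluster (grey), with medians as black bars, for the 10 clusters with 3 or more members. The 2 medians are 1.01 and 0.26 in cluster 15 and 0.46 and 0.40 in cluster 16. The grey genes include finger genes without a ZNF name.

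The genes that carry out KRAB silencing were looked at beside the ZNF genes, from a list of 28 cofactors. Of these, 19 were called higher and 7 lower, and 2 did not pass. Most of the list stood at 50 CPM or more in WT, where 45.7% of all genes were called higher and 33.5% lower. The list was not tested as a set. TRIM28, the corepressor bound by KRAB domains, stood at 227, 208 and 201 CPM in WT and at 442, 404 and 422 CPM in ΔTUT4/7 (1.00 ± 0.05, adjusted p = 3.97e-13). SETDB1 was lower (91.2 ± 2.94 against 73.1 ± 4.15 CPM, -0.32 ± 0.05), as were its partner ATF7IP (-0.24 ± 0.04) and the HUSH subunit MPHOSPH8 (-0.59 ± 0.07). Another HUSH subunit, PPHLN1 (0.52 ± 0.05), and the HUSH partner MORC2 (0.38 ± 0.05) rose. CBX5, which encodes HP1α, fell from 859 ± 34.0 to 335 ± 8.59 CPM (-1.36 ± 0.04), whereas CBX1 (0.16 ± 0.05) and CBX3 (0.23 ± 0.05) rose. The HUSH subunit TASOR (0.07, adjusted p = 0.198) and the DNA methyltransferase DNMT1 (-0.09, adjusted p = 0.113) did not pass. ZNF274 is both a member and on this list.

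At the limit of 50 mean counts, ZNF20 (mean 58.0) and ZNF296 (61.5) were just inside and ZNF285 (48.3) and ZNF625 (44.6) just outside. ZNF20 stood at 1.63, 2.58 and 2.84 CPM in WT and at 2.22, 2.58 and 2.09 CPM in ΔTUT4/7, and the groups overlapped. ZNF625, which shares a readthrough transcript with ZNF20, had no counts in WT and 268 in ΔTUT4/7, and ZNF285 went from 0.93 to 3.19 CPM. Of the 21 genes below the limit, 11 could be tested, with 5 called higher and 2 lower, where 28.6% of all tested genes were higher and 29% lower.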

How the data were processed

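Total RNA of 3 WT and 3 ΔTUT4/7 HEK 293T samples was sequenced after rRNA depletion, paired-end. Per the study's methods and the submitters' processing notes, the authors aligned reads to hg38 with STAR 2.7.3a, annotated them with Ensembl transcripts and quantified genes in Partek 10.0.22. The table the authors deposited holds an estimated count per gene and library from Partek's expectation-maximisation model, and 45.2% to 50.0% of a library's values were not whole (tolerance 1e-09). A second deposited table holds the authors' own comparison (p-values, FDR, ratios, fold changes and group means) and was not used.

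Counts were rounded and genes with a largest count above 12 were tested (23952), with TMM scaling, edgeR 4.0.16 (glmQLFit robust, glmQLFTest, group only) in R 4.3.3 and Benjamini-Hochberg adjustment over all tested genes. limma 3.58.1 and DESeq2 1.42.0 served as alternatives. These steps were tested on simulated data. Of 19870 genes with the same start in GENCODE release 44, 18905 had a stop 1 base beyond that annotation, so ends are printed 1 base lower. C2H2 repeats and KRAB-like cores were searched in translated GENCODE coding sequences. Clusters were split at gaps over 1 Mb between starts.

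The members, lists and tests were chosen with earlier results of these data known. Named genes are ZNF808 and its neighbours, the 6 largest rises and falls among called members averaging at least 100 counts whose groups did not overlap, the smallest p per cluster of 5 or more members, the genes next to the limit, the 3 highest per length and a fixed list of described genes. ZNF682, ZNF528, ZNF320, ZNF813, ZNF468, ZNF836 and ZNF175 were added after their values were seen. Alternatives were other scalings, filters and tools, a replicate block, leaving out each library, a GC and length offset, a 1.5-fold minimum, other cluster gaps and subtraction of neighbouring genes, and 3 more chosen after seeing the data (50 counts in each group, all tested chromosome 19 ZNF genes, whole counts only). A further gene of the fixed marker list is not reported here.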

Additional observations from a re-analysis of the deposited data

How the results depend on the processing

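With ZNF808 included, the counts of members called higher (125) and lower (20) stayed within 1.5 times under every scaling, filter and tool run. Against a 1.5-fold minimum, 56 were higher and 2 lower. Over members with whole counts alone, 14 were higher, 2 lower and 5 at 2-fold or more higher, from fewer genes. Subtracting neighbouring genes left 16 at 2-fold or more higher and 2 lower. The 1 member at 2-fold or more lower became 2 with library size alone, upper-quartile scaling and all tested chromosome 19 ZNF genes. Library size alone moved the median of all genes by -0.11 and upper-quartile scaling by -0.10, and 106 and 108 members were then higher.

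Leaving out 1 library gave 117 to 123 higher, 17 to 19 lower, 32 to 39 at 2-fold or more higher and 1 to 2 lower, the 2 without ΔTUT4/7 replicate 3. Cluster medians relative to expressed genes, in chromosome order, then ran from -0.47 to -0.39 (cluster 1, main -0.40), 0.06 to 0.11 (cluster 2), -0.14 to -0.06 (cluster 3, main -0.11; -0.0638 without ΔTUT4/7 replicate 3), 0.20 to 0.27 (cluster 5), -0.03 to 0.04 (cluster 8), 0.47 to 0.55 (cluster 9, main 0.51), -0.50 to -0.34 (cluster 10, main -0.40), 0.36 to 0.40 (cluster 12), 0.88 to 1.01 (cluster 15, main 0.94) and 0.36 to 0.41 (cluster 16, main 0.40). A GC and length offset gave -0.31, 0.34, 0.60, -0.25, 0.41 and 0.36 for clusters 1, 5, 9, 10, 12 and 16. Members with a mean count of 200 or more gave -0.71, 0.0160, 0.19, 0.0760, 0.55 and 0.43 for clusters 1, 2, 5, 8, 9 and 16. A gap of 2 Mb merged clusters and gave -0.0617 (2 and 3), 0.46 (8 and 9), 0.35 (10) and 0.61 (15 and 16), and a gap of 0.5 Mb gave 0.15 for cluster 5. limma on log2(CPM + 1) gave 0.35 for cluster 16 and all tested ZNF genes gave 0.55 for cluster 9.

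ZNF20, not called in any direction, changed sign to 0.0928 without WT replicate 3 (adjusted p = 0.773, edgeR). ZNF473 lost its call under 9 alternatives, ZNF91 without WT replicate 2 or ΔTUT4/7 replicate 3 and under the GC offset, and ZNF296 under the GC offset; the cause was not tested. Same-numbered libraries had deviations correlating at 0.05, -0.01 and -0.02, so no effect shared by same-numbered libraries was seen. Whether the samples were handled in pairs cannot be told from these values. The replicate block gave 125 higher, 20 lower, 36 and 1 at 2-fold. Depth limits the near-silent genes, whose WT levels rest on few counts.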

Other observations

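Finger genes of chromosome 19 outside the naming rule were looked at after the values of the members were known. Of 8 with ZFP, ZSCAN or ZBTB names and a mean count of 50 or more, 4 were called higher and none lower at an adjusted p under 0.05 in edgeR. Over all genes under that limit, 39.2% were called higher and 31.7% lower. ZSCAN18 rose from 2.91 ± 0.441 to 27.5 ± 3.26 CPM (SD, n = 3; log2 fold change 3.27 ± 0.13, SE) and ZFP28 from 6.25 ± 0.494 to 15.3 ± 0.507 CPM (1.30 ± 0.11), both within the cluster interval nearest to the long-arm end.

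Of 11 ZNF-named genes of chromosome 19 that the table does not annotate as protein-coding, 9 could be tested, with 4 called higher and 1 lower. Over all tested genes, 28.6% were called higher and 29% lower. ZNF849P went from 0.0298 to 1.51 CPM and ZNF137P, on the strand opposite to ZNF83, from 1.27 to 5.17 CPM, whereas ZNF887P fell from 16.7 to 7.71 CPM. Such pseudogenes can share reads with protein-coding paralogs.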
